A study of Arabidopsis thaliana with 6 samples.

Results

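The genes described here are 51 cell cycle genes of *Arabidopsis thaliana*, out of 37336 genes in the count table: the A-, B- and D-type cyclins, the cyclin-dependent kinases (CDKs) of the A and B classes, the CDK inhibitors of the KRP and SIM families, the inhibitory kinase WEE1, and genes of DNA replication, mitosis and cytokinesis. The rule that chose them uses gene names and the phase in which each is known to act, and no measured value, though it was written with earlier results of these data known. All 51 were found, and all 51 had a mean normalized read count of at least 10, the minimum for testing. The *eml1 eml3* double mutant (alleles *eml1-2* and *eml3-4*) was compared with wild type (WT), with 3 libraries of each genotype. RNA came from siliques, the seed-bearing fruits, of self-pollinated flowers at 1 to 5 days after pollination, and was selected for poly(A) tails. *EML1* and *EML3* encode proteins that the series title describes as histone readers, and it links them to keeping seeds from developing in the absence of fertilization. The sources used here give neither the accession of the plants nor whether the 3 libraries of a genotype are separate harvests. The p-values therefore set the difference between genotypes only against variation among these libraries, and that variation may be technical.

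A plant cell divides through phases that CDKs drive, each CDK being active only when bound to a cyclin. CDKA;1 with D-type cyclins promotes entry into DNA synthesis by phosphorylating the retinoblastoma protein, A3-type cyclins act around DNA synthesis, and the plant-specific B-class CDKs with A2- and B-type cyclins act from late DNA synthesis to mitosis. KRP and SIM proteins inhibit CDK complexes and favour endoreduplication, in which DNA is copied without division. In a young silique division goes on in the embryo, the seed coat and the fruit wall, while endosperm nuclei divide at first without forming walls.

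EML3 (AT5G13020) had 190, 173 and 198 normalized reads in mutant libraries 1, 2 and 3, against 2255, 2129 and 2718 in WT libraries 1, 2 and 3. It fell by 3.65 on the log2 scale (SE 0.15, limma adjusted p = 2.24e-06). EML1 (AT3G12140) had 1236, 1123 and 1072 normalized reads in the mutant, against 1190, 1289 and 1365 in WT, and its log2 difference of -0.16 did not pass (limma adjusted p = 0.499). The groups overlapped for EML1, so its transcript level does not by itself check the label of the *eml1* allele. Where the mutation lies relative to the counted reads is not given in the sources used here.

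Recovered depth was 26771227 to 39246167 reads per library. Markers of the silique's parts were present. All 5 fruit wall, all 5 endosperm, all 5 embryo and all 4 seed coat markers were above 0 in all 6 libraries. Each of these averaged at least 10, though the embryo markers L1L and WOX2 fell to 2 and 3 recovered reads in mutant library 2. All 3 root markers averaged below 10 and none was above 0 in all 6 libraries. RSL4, which drives root hair growth, was at 0 in every library. Mutant library 3 and WT library 3 each stood apart from the rest of their group. On log2 counts across 21751 genes, which are not independent replicates, mutant library 3 correlated with mutant libraries 1 and 2 at 0.93 and 0.93, where these 2 correlated with each other at 0.98, and WT library 3 correlated with WT libraries 1 and 2 at 0.95 and 0.95, where these correlated at 0.97. The 8 seed storage genes, which mark late seed filling and of which 6 were above 0 in all libraries, summed to 69.0, 81.0 and 67610 normalized reads in mutant libraries 1, 2 and 3, against 282, 189 and 83.4 in WT libraries 1, 2 and 3. The 4 pollen tube genes summed to 5008, 2972 and 3073 in the mutant libraries, against 5214, 5412 and 13440 in WT. The 5 embryo markers summed to 216, 234 and 1202 in the mutant libraries, against 1041, 1001 and 733 in WT. The part of these differences between libraries in the results that follow was not tested, and the number of genes called and the medians of the gene groups are therefore also given without both libraries numbered 3. In such bulk RNA, fewer cells of a type and less RNA per cell cannot be told apart.

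None of the 51 cell cycle genes passed the test between mutant and WT. With limma on log2(count + 1) and Benjamini-Hochberg adjustment at 0.05, 0 of 51 were called, where 6.79% of the 21751 genes tested were called (3.69% higher and 3.1% lower in the mutant). At an unadjusted p under 0.05 there were 6 (11.8%), against 21.5% of all genes tested. These 6 were CDKB1;2 and PCNA2, with higher estimates in the mutant, and KN, CDC20.1, KRP3 and CYCD3;3, with lower ones. The quasi-likelihood test of edgeR on recovered whole reads also called 0 of 51, where it called 6.49% of all genes, and had 7 of 51 at an unadjusted p under 0.05, against 20.9% of all genes. DESeq2 on the same reads called 2 of 51, where it called 10.3% of all genes. Both, CDKB1;2 and PCNA2, were higher in the mutant. With both libraries numbered 3 left out, limma called 4 of 51 (PCNA2, CYCA2;3, CDKB1;2 and KN), where it called 13.9% of all genes. The authors' deposited comparison, also made with DESeq2 on these counts, is not independent of the DESeq2 result above. Its adjusted p-value was under 0.05 for CDKB1;2 (0.0112) and PCNA2 (0.0320), against 9.65% of genes with an adjusted p-value there.

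The estimates were mostly small. The median log2 difference (mutant minus WT) over the 51 was -0.14, beside 0.003 over all genes tested, and 32 estimates were below 0 and 19 above. Without both libraries numbered 3 the median was -0.027, with 28 of 51 below 0. For 36 of the 51 genes (70.6%) the 95% interval of the difference lay wholly within a 2-fold change in either direction, as it did for 63.3% of all genes tested. For the other 15 the interval reached past 2-fold, so 3 libraries per genotype cannot show whether a change of that size was present. All 3 mutant libraries lay on one side of all 3 WT libraries for 12 of the 51 genes (23.5%), against 26.9% of all genes tested. PCNA2, CDKB1;2 and KRP5 were higher in every mutant library (3 genes, beside 14.0% of all genes), and 9 genes were lower in every mutant library (beside 12.8%). These 9 were CYCD3;3, CYCA3;1, CYCB1;2, CYCB3;1, CDKB1;1, CDKB2;1, KN, CDC20.1 and KRP3.

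**Figure D1:**
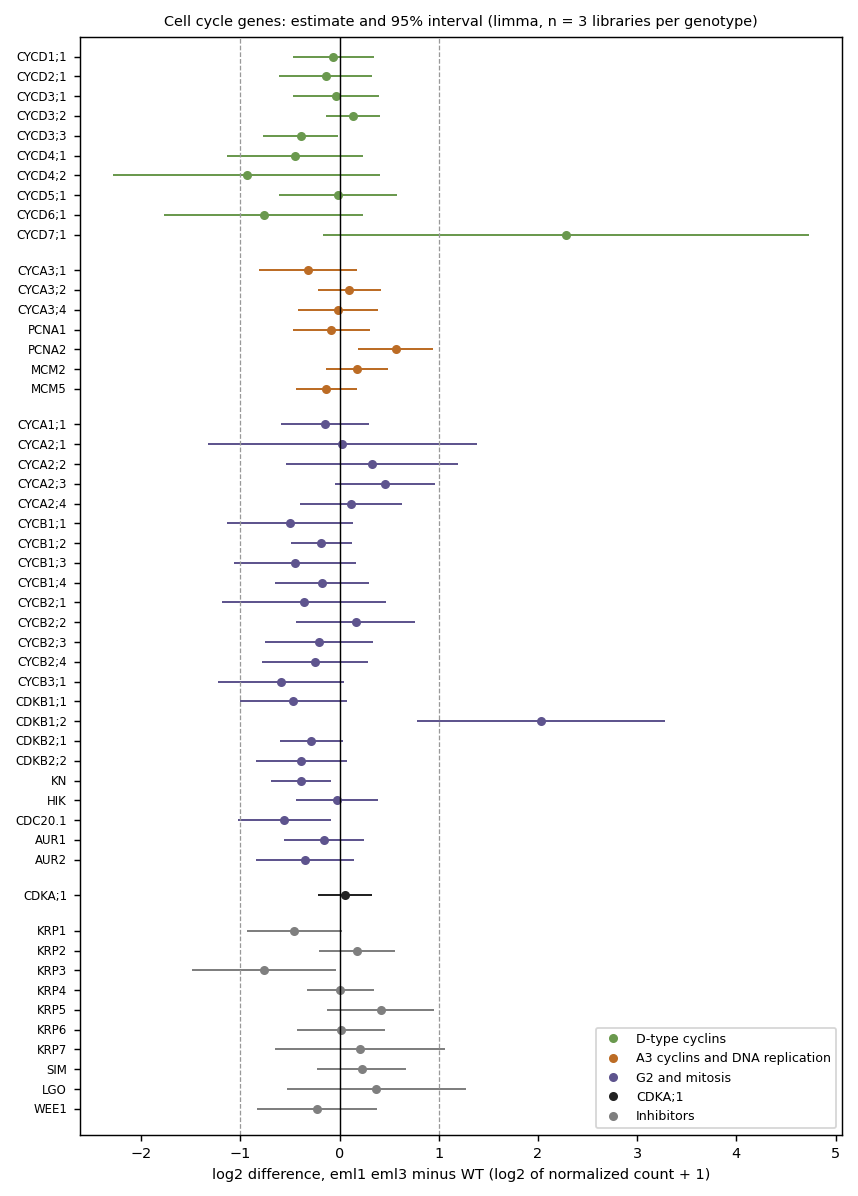
Log2 difference (*eml1 eml3* minus WT) of each of the 51 cell cycle genes on the x axis, with points for limma estimates, bars for 95% intervals and genes grouped by phase. Most intervals cross 0, those of CDKB1;2 and PCNA2 lie wholly above 0, those of KN, CDC20.1, KRP3 and CYCD3;3 lie wholly below 0, and CYCD7;1 has the widest interval (-0.16 to 4.72).

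Among the 10 D-type cyclins, the partners of CDKA;1 at entry into the cycle, none passed the test. Their median log2 difference was -0.10, with 8 estimates below 0 and 2 above, and -0.15 with 6 below 0 when both libraries numbered 3 were left out. CYCD3;3 (AT3G50070), one of the CYCD3 cyclins that sustain division in shoot organs, had 404, 467 and 363 normalized reads in the mutant, against 562, 504 and 547 in WT. Every mutant library lay below every WT library. Its mean was 411 ± 52.4 in the mutant and 537 ± 30.3 in WT (SD, n = 3 libraries each), a log2 difference of -0.39 ± 0.17 (SE, limma adjusted p = 0.204).

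CYCD1;1 (AT1G70210), the D-type cyclin with the highest mean count, had 1677, 1745 and 1197 normalized reads in the mutant, against 1305, 1615 and 1901 in WT. The groups overlapped, with mutant library 3 and WT library 1 low, and the log2 difference was -0.065 ± 0.18 (SE, limma adjusted p = 0.878). The largest estimate of all 51 genes belonged to CYCD7;1, a cyclin of the stomatal lineage. It had 28.4, 12.2 and 32.8 normalized reads in the mutant, against 6.71, 13.7 and 0 in WT. The groups overlapped at these low counts, and the log2 difference of 2.28 ± 1.1 (SE) had a 95% interval of -0.16 to 4.72 (limma adjusted p = 0.264). The most negative estimate, -0.93, belonged to another low-count gene, CYCD4;2, with 58.4, 70.9 and 16.4 normalized reads in the mutant against 136, 79.3 and 46.2 in WT (limma adjusted p = 0.412), and its groups overlapped as well. The other 6 D-type cyclins had log2 differences of -0.77 (CYCD6;1) to 0.13 (CYCD3;2), with limma adjusted p-values of 0.363 to 0.978.

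Of the 7 genes of DNA synthesis, 1 stood out among the estimates without passing the test. PCNA2 (AT2G29570) encodes the sliding clamp that holds DNA polymerase on its template, as does its paralogue PCNA1 (AT1G07370). PCNA2 had 885, 773 and 621 normalized reads in the mutant, against 516, 489 and 519 in WT. All mutant libraries lay above all WT libraries, with mutant library 3 closest to WT and the WT libraries close together. Its mean was 759.5 ± 132 in the mutant and 508 ± 16.4 in WT (SD, n = 3 each), 1.5-fold higher in the mutant. The log2 difference was 0.57 ± 0.17 (SE), with a 95% interval of 0.20 to 0.93 (limma adjusted p = 0.0706, edgeR adjusted p = 0.0636, DESeq2 adjusted p = 0.0306). Without mutant library 3 it was 0.70 and passed (limma adjusted p = 0.0145), where 12.1% of all genes passed. PCNA2 passed in 3 of 20 alternatives, with adjusted p-values of 0.0145 to 0.279.

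PCNA1 had 972, 904 and 672 normalized reads in the mutant, against 907, 985.5 and 788 in WT. Its groups overlapped, with library 3 lowest in both genotypes, and the log2 difference was -0.085 ± 0.17 (SE, limma adjusted p = 0.824). The PCNA2 to PCNA1 ratio was 0.910, 0.854 and 0.925 in the mutant libraries, against 0.568, 0.496 and 0.658 in the WT libraries. This ratio, taken within each library, did not overlap between genotypes. It was 1 of 11 paralogue pairs compared, and its two-sided exact permutation p = 0.1 is the smallest that 3 against 3 libraries allow (0.275 after Benjamini-Hochberg adjustment over the 11). The transcripts of the PCNA genes are 85.8% identical over 786 aligned bases, and PCNA2 shares 23.6% of its exonic bases with ENOC, an enolase-like gene on the opposite strand. ENOC had 1074, 1054 and 958 normalized reads in the mutant, against 1005, 1118 and 1150 in WT (limma adjusted p = 0.760). Reads in the shared stretch cannot be assigned, as no source used here states the strand setting of the counting.

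None of the other genes of this phase passed the test. MCM5 (AT2G07690), a subunit of the helicase that opens replication origins, had 1298, 1374 and 1068 normalized reads in the mutant, against 1284, 1422 and 1384 in WT. Its groups overlapped, and the log2 difference was -0.14 ± 0.13 (SE, limma adjusted p = 0.615). MCM2, another subunit, had a log2 difference of 0.18 ± 0.14 (SE, limma adjusted p = 0.509). CYCA3;2 (AT1G47210), the most abundant of the A3 cyclins that accompany DNA synthesis, had 830, 794 and 695.5 normalized reads in the mutant, against 734, 743.5 and 688 in WT, and its groups overlapped (limma adjusted p = 0.746). CYCA3;1 (AT5G43080) had 159.9, 196.5 and 197 normalized reads in the mutant, against 237, 231 and 219.8 in WT. Every mutant library lay below every WT library, but the log2 difference of -0.32 ± 0.22 (SE) did not pass (limma adjusted p = 0.441). CYCA3;4 had a log2 difference of -0.020. All 7 intervals of this phase lay within 2-fold, and the median log2 difference was -0.020, or -0.012 without both libraries numbered 3.

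The CDK common to all phases, CDKA;1 (AT3G48750), had the highest mean count of the 51 genes. It had 2077, 1924 and 2008 normalized reads in the mutant, against 2003, 1704 and 2103 in WT. The groups overlapped, and the mean was 2003 ± 76.7 in the mutant and 1936 ± 208 in WT (SD, n = 3 each). The 95% interval of its log2 difference ran from -0.21 to 0.32 (limma adjusted p = 0.843).

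Of the 4 B-class CDKs, 3 had estimates below 0, with or without both libraries numbered 3. They also gave the lowest p-value of the 51 genes, in CDKB1;2 (AT2G38620). CDKB1;2 had 92.5, 44.6 and 68.0 normalized reads in the mutant, against 15.9, 8.82 and 24.8 in WT. These values rest on 114, 44 and 54 recovered reads in the mutant libraries, and on 19, 9 and 22 in the WT libraries. Every mutant library was above every WT library, and within each genotype the highest library was more than 2-fold above the lowest. The mean was 68.4 ± 24.0 in the mutant and 16.5 ± 8.01 in WT (SD, n = 3 each), 4.14-fold higher in the mutant. The log2 difference was 2.03 ± 0.56 (SE) with a 95% interval of 0.79 to 3.27. It did not pass in limma (adjusted p = 0.0577) or in edgeR (adjusted p = 0.0671), and it passed in DESeq2 (adjusted p = 0.0107). CDKB1;2 passed in 3 of the 19 alternatives that tested it, with adjusted p-values of 0.0107 to 0.236 and log2 differences of 1.67 to 2.37. It passed without both libraries numbered 3 (limma adjusted p = 0.0312), where 13.9% of all genes passed. Without mutant library 3 alone it did not pass (limma adjusted p = 0.0674).

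CDKB1;1 (AT3G54180), the paralogue of CDKB1;2, is known to act with CYCA2;3 to hold back endoreduplication. It had 164, 212 and 234 normalized reads in the mutant, against 339.6, 237 and 267 in WT. Every mutant library lay below every WT library, though mutant library 3 and WT library 2 differed little, and the log2 difference was -0.47 ± 0.24 (SE, limma adjusted p = 0.292). The CDKB1;2 to CDKB1;1 ratio was 0.564, 0.211 and 0.290 in the mutant libraries, against 0.0469, 0.0372 and 0.0928 in the WT libraries. The ratios did not overlap, which had to follow, as CDKB1;2 was higher and CDKB1;1 lower in every mutant library. The exact permutation p = 0.1, the smallest possible with 3 against 3 (0.275 after adjustment over 11 pairs), therefore adds nothing to the counts of each gene. Summed over both genes, the pair had 256, 256 and 302 normalized reads in the mutant, against 355.5, 246 and 292 in WT, and these sums overlapped. CDKB1;1 thus held most of the summed reads in all 6 libraries.

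The CDKB1 transcripts are 85.2% identical over 724 aligned bases when searched from CDKB1;2, and 85.6% over 954 when searched from CDKB1;1. Both are below the 95% identity used here to mark a near-identical copy. CDKB1;2 also shares 18.3% of its exonic bases with AT2G38630 on the opposite strand. AT2G38630 had 311, 271 and 414.5 normalized reads in the mutant, against 392, 324 and 458 in WT (limma adjusted p = 0.574), and its mutant and WT libraries overlapped. Of the 6 genes nearest to CDKB1;2 on its chromosome, AT2G38630 among them, 4 were tested and 0 were called by limma. The smallest limma adjusted p was 0.419. Of all genes tested 6.79% were called, so 0 of 4 cannot show whether the region changed.

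The CDKB2 kinases, required in the shoot meristem, had lower estimates in the mutant. CDKB2;1 (AT1G76540) had 889, 800.1 and 799 normalized reads in the mutant, against 917, 1138 and 989 in WT. The groups did not overlap, the mutant library 1 and WT library 1 being closest, and the log2 difference was -0.29 ± 0.14 (SE, limma adjusted p = 0.263). CDKB2;2 had 468, 339 and 304 in the mutant libraries, against 535, 463 and 435 in WT. Its groups overlapped at mutant library 1, and the log2 difference was -0.39 ± 0.20 (SE, limma adjusted p = 0.307).

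**Figure D2:**
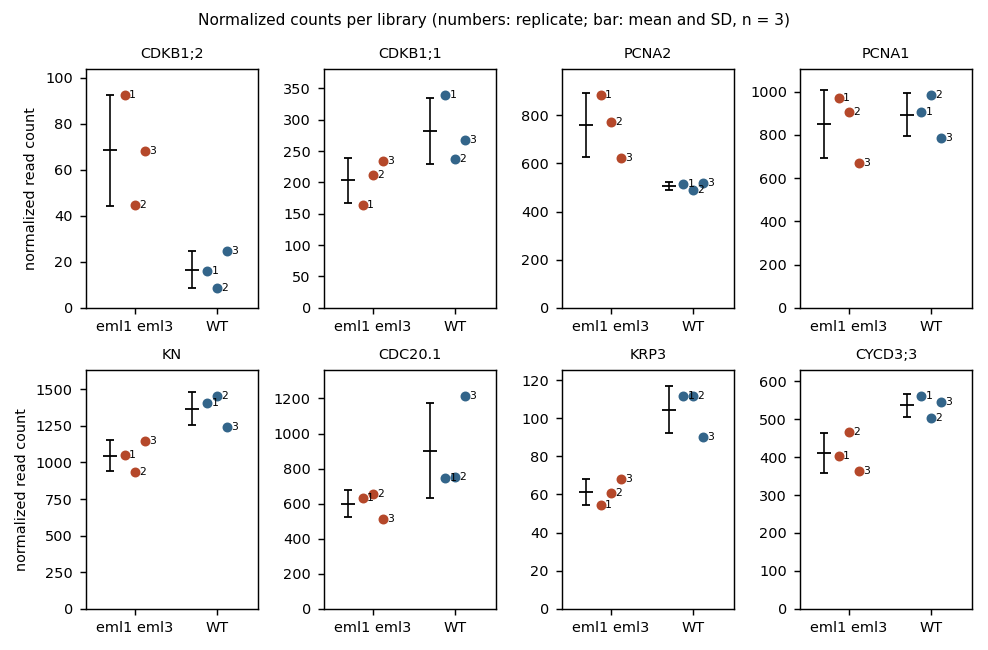
Normalized read count (y axis, from 0) in each of the 3 *eml1 eml3* libraries (left) and 3 WT libraries (right), with bars for mean and SD, for the 6 genes with an unadjusted p under 0.05 and the paralogues CDKB1;1 and PCNA1. The groups overlap in PCNA1 and not in the other 7, but choosing 6 genes by p-value favours groups that do not overlap. Of all genes tested 26.9% do not overlap. CDC20.1 has 1 high WT library, at 1215.

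Of the 5 cyclins of the A1 and A2 groups, which act from late DNA synthesis to mitosis, 4 had limma estimates above 0, and all 5 did without both libraries numbered 3. For 1 of the 4, CYCA2;1, the direction was not settled: its mean was 37.2 in the mutant and 44.4 in WT, and edgeR gave -0.25 where limma gave 0.026. CYCA2;3 (AT1G15570) had the highest mean and the smallest p among them, with 793, 963 and 761 normalized reads in the mutant, against 448, 579.9 and 864 in WT. WT libraries 1 and 2 were low and WT library 3 lay inside the mutant range, so the groups overlapped. The log2 difference was 0.46 ± 0.23 (SE, limma adjusted p = 0.274). Mutant library 3 was the lowest mutant library and WT library 3 the highest WT library, so leaving both out had to enlarge the difference. It was then 0.78 and passed (limma adjusted p = 0.0251), where 13.9% of all genes passed. This was the only one of 20 alternatives in which CYCA2;3 passed. WT library 3 was the highest WT library in all 5 of these genes, and in 8072 of the 21751 genes tested. CYCA1;1, CYCA2;1, CYCA2;2 and CYCA2;4 had log2 differences of -0.15, 0.026, 0.33 and 0.12, with limma adjusted p-values of 0.683 to 0.988.

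Of the 9 B-type cyclins, which accompany mitosis, 8 had estimates below 0, with a median log2 difference of -0.25 and none past the threshold. Without both libraries numbered 3, 6 of 9 were below 0 and the median was -0.11. CYCB3;1 (AT1G16330) had the smallest p, with 152, 109 and 90.7 normalized reads in the mutant, against 173, 157 and 193 in WT. The groups did not overlap, and the log2 difference was -0.59 ± 0.28 (SE, limma adjusted p = 0.259). CYCB1;2 (AT5G06150) had the highest mean, with 699.5, 718 and 690.5 normalized reads in the mutant, against 738, 796 and 865 in WT. Its groups did not overlap either, the log2 difference was -0.18 ± 0.14 (SE, limma adjusted p = 0.484), and part of its reads may belong to a near-identical copy, AT1G34460.

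CYCB1;1 (AT4G37490), a cyclin also known to respond to DNA damage, had 161.5, 196.5 and 121 normalized reads in the mutant, against 176, 213 and 292 in WT. The groups overlapped, with WT library 3 the highest and mutant library 3 the lowest of all 6 (limma adjusted p = 0.345). CYCB1;3 varied less among mutant libraries, with 269, 251 and 269.6 normalized reads, than among WT libraries, with 233, 389 and 513, and it did not pass (limma adjusted p = 0.381). The only B-type cyclin with an estimate above 0 was CYCB2;2, with a log2 difference of 0.16 ± 0.26 (SE, limma adjusted p = 0.782). The remaining 4 had log2 differences of -0.36 (CYCB2;1) to -0.18 (CYCB1;4), all overlapping between groups, and CYCB2;3 among them has a near-identical copy, AT1G20590.

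The 5 genes of mitosis and cytokinesis all had estimates below 0, with a median log2 difference of -0.35. Without both libraries numbered 3 the median was -0.15, with 4 of 5 below 0. KN (KNOLLE, AT1G08560), the syntaxin that fuses vesicles into the new cell plate, had the highest mean and the smallest p. It had 1052, 938 and 1147 normalized reads in the mutant, against 1405, 1455 and 1239 in WT. All mutant libraries lay below all WT libraries, and the library numbered 3 was the closest to the other genotype in both groups. The mean was 1045 ± 104.5 in the mutant and 1366 ± 113 in WT (SD, n = 3 each), with a log2 difference of -0.39 ± 0.13 (SE, limma adjusted p = 0.115, edgeR adjusted p = 0.117). Leaving out both libraries numbered 3 therefore had to enlarge the difference. It was then -0.53 and passed (limma adjusted p = 0.0314), where 13.9% of all genes passed. This was the only one of 20 alternatives in which KN passed. KN shares 33.5% of its exonic bases with NPQ1, a xanthophyll cycle enzyme gene on the opposite strand, with 1348, 1227 and 2055 normalized reads in the mutant, against 2014, 1936 and 1758 in WT. NPQ1 was thus also lower in mutant libraries 1 and 2 and not in mutant library 3 (limma adjusted p = 0.320), and its part in the KN values was not tested.

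CDC20.1 (AT4G33270), an activator of the anaphase-promoting complex that marks cyclins for destruction, had 631, 656 and 512 normalized reads in the mutant, against 745, 749 and 1215 in WT. Every mutant library lay below every WT library, and WT library 3 stood far above the other 2. The log2 difference was -0.56 ± 0.21 (SE, limma adjusted p = 0.144), -0.33 without WT library 3 (limma adjusted p = 0.332) and -0.21 without both libraries numbered 3 (limma adjusted p = 0.367). CDC20.1 has a near-identical copy, CDC20.2 (97.0% identity over 1366 bases), which had 473, 482 and 343 normalized reads in the mutant against 293.5, 488 and 692 in WT, so the split of reads between them is uncertain. The Aurora kinases AUR1 and AUR2, which act on chromosomes and the spindle, had log2 differences of -0.15 and -0.35 (limma adjusted p = 0.673 and 0.393). HIK (HINKEL), a kinesin of the phragmoplast that builds the cell plate, had one of -0.026 (limma adjusted p = 0.957).

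Taking the 23 genes of G2 and mitosis as 1 group (A1, A2 and B cyclins, CDKB kinases and the 5 genes just described), 17 estimates were below 0 and the median log2 difference was -0.21. Their counts summed to 9436, 8783 and 8286 normalized reads in mutant libraries 1, 2 and 3, against 9056, 9998 and 11580 in WT libraries 1, 2 and 3. The sums overlapped, since mutant library 1 was above WT library 1. WT library 3 was the highest WT library for 17 of the 23 genes, and mutant library 3 was the lowest mutant library for 15. Over all 21751 genes tested these counts were 8072 and 8885. Leaving out WT library 3 gave a median of -0.13 with 16 genes below 0. Leaving out both libraries numbered 3 gave a median of -0.085 with 13 of 23 below 0, while the median over all genes was then 0.009. WT library 3 was also the library with the highest summed pollen tube markers (13440, against 5214 and 5412 in the other WT libraries), and the part of that difference in these values was not tested.

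**Figure D3:**
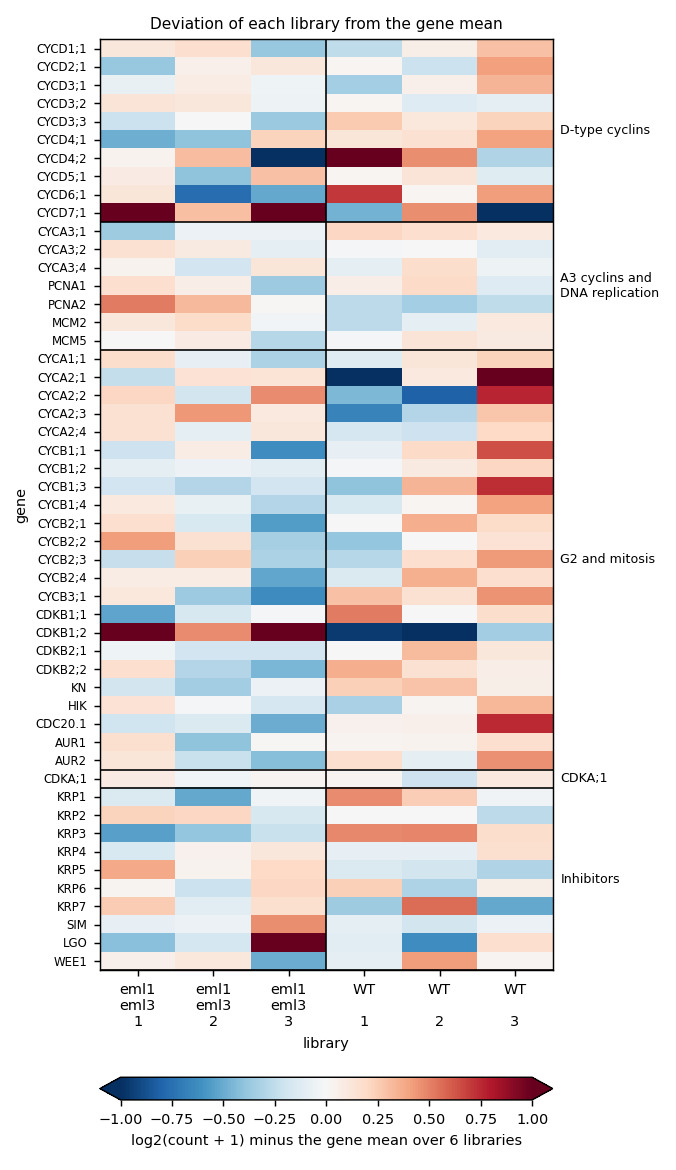
Each row is 1 of the 51 cell cycle genes and each column 1 library, *eml1 eml3* left and WT right; colour is log2(count + 1) minus the gene's mean over the 6 libraries, limited to -1 to 1. WT library 3 is the reddest WT column for most G2 and mitosis genes, and CDKB1;2 is higher in all 3 mutant columns.

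Among the 10 inhibitors none passed the test, 7 estimates were above 0 and 3 below, and the median log2 difference was 0.095. Without both libraries numbered 3 the split was 5 against 5. KRP3 (AT5G48820), a CDK inhibitor of the KRP family, had 54.4, 60.8 and 68.0 normalized reads in the mutant, against 111.5, 112 and 90.2 in WT. Every mutant library lay below every WT library, and the mean was 61.1 ± 6.84 in the mutant and 104.5 ± 12.4 in WT (SD, n = 3 each). The log2 difference was -0.76 ± 0.32 (SE, limma adjusted p = 0.200). KRP4 (AT2G32710), the KRP with the highest mean, had 638, 729 and 767 normalized reads in the mutant, against 669, 668 and 790.3 in WT. Its groups overlapped almost fully, and its log2 difference was 0.005 ± 0.15 (SE, limma adjusted p = 0.990). KRP4 shares 38.7% of its exonic bases with CB5-B on the opposite strand. CB5-B had 3615, 3042 and 2932 normalized reads in the mutant, against 3551, 2860 and 2229 in WT (limma adjusted p = 0.610). The part of CB5-B in the KRP4 values was not tested.

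KRP5 (AT3G24810) was the one inhibitor above WT in every mutant library, with 210.2, 165 and 185 normalized reads in the mutant against 146, 142 and 131 in WT. Its log2 difference was 0.41 ± 0.24 (SE, limma adjusted p = 0.360). KRP1 (AT2G23430) had 316, 245 and 341.5 normalized reads in the mutant, against 485, 415 and 340.5 in WT. Its groups overlapped only in that mutant library 3 was above WT library 3, and the log2 difference was -0.46 ± 0.21 (SE, limma adjusted p = 0.242). KRP2, KRP6 and KRP7 had log2 differences of 0.18, 0.012 and 0.21 (limma adjusted p = 0.599, 0.982 and 0.810).

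SIM (SIAMESE, AT5G04470), which triggers endoreduplication in leaf hairs, had 358, 364 and 523 normalized reads in the mutant, against 355, 333 and 363 in WT. Mutant library 3 was the high value, the other 2 mutant libraries lying at or near the WT range. LGO (AT3G10525), known for giant cells of the sepal, had 123, 146 and 365 normalized reads in the mutant, against 153, 107 and 185 in WT, and mutant library 3 was again the high one. The log2 differences were 0.22 ± 0.20 for SIM and 0.37 ± 0.40 for LGO (SE; limma adjusted p = 0.572 and 0.653). Without mutant library 3 they were 0.043 for SIM and -0.11 for LGO. Mutant library 3 was the library with 67610 normalized reads of seed storage genes, and the part of that difference in SIM and LGO was not tested. WEE1 (AT1G02970), a kinase that restrains CDKs after DNA damage, had 181, 187 and 123.5 normalized reads in the mutant, against 163, 233 and 178 in WT. Its groups overlapped, and its log2 difference was -0.23 ± 0.27 (SE, limma adjusted p = 0.684).

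Levels of different genes were compared as mean normalized count per kilobase of each gene's longest transcript in the reference annotation. CDKA;1 was the highest in both genotypes, at 1336 per kilobase in the mutant and 1292 in WT. CYCD3;2 followed in the mutant at 985 (898 in WT), and KN followed in WT at 986 (754 in the mutant). The lowest levels in WT were those of CYCD7;1, with 18.7 per kilobase in the mutant and 5.2 in WT, and CDKB1;2, with 47.5 per kilobase in the mutant and 11.5 in WT. Even in the mutant CDKB1;2 was below CDKB1;1 (147 per kilobase in the mutant, 204 in WT) and CDKB2;1 (607 in the mutant, 742 in WT). In the plot of levels by family, most families with several members span a wide range of levels in both genotypes, and the lines that join the genotypes are mostly short beside that range. The median coefficient of variation between libraries was 16.6% in the mutant and 16.0% in WT over the 51 genes.

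**Figure D4:**
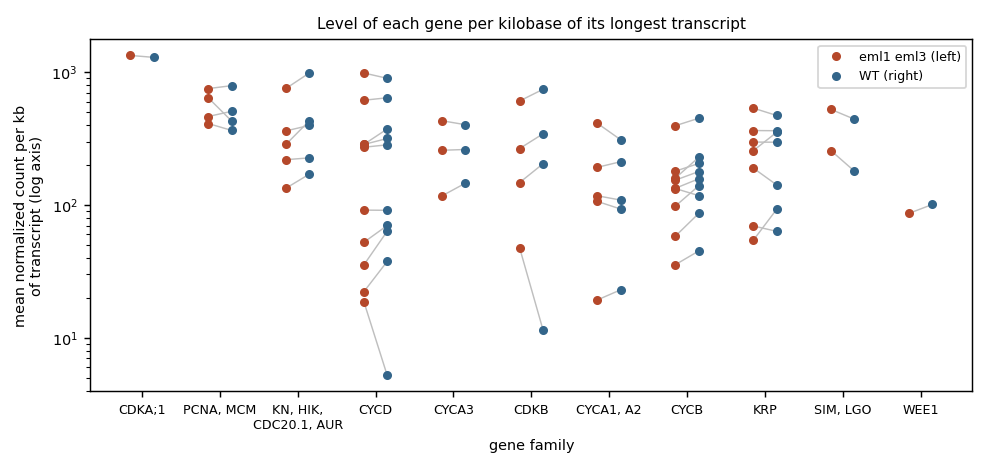
Mean normalized count per kilobase of longest transcript (log y axis) of each of the 51 genes by family (x axis), with *eml1 eml3* points left and WT points right, joined by a line for each gene. CDKA;1 is the highest, at 1336 in the mutant against 1292 in WT, while CDKB1;2 and CYCD7;1 have the steepest lines.

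To place these genes in the wider machinery, 81 other cell cycle genes were examined in 7 lists, of which 79 were tested. By limma, 1 was higher and 2 were lower in the mutant, 3 of 79 in all, beside 6.79% of all genes. The 2 lower genes belonged to the 18 other genes of mitosis and cytokinesis, in which 16 estimates were below 0 and the median log2 difference was -0.29 (-0.12 with 13 below 0 when both libraries numbered 3 were left out).

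MAD2 (AT3G25980), a protein of the spindle checkpoint that delays anaphase until chromosomes are attached, fell in the mutant. It had 346, 228 and 251 normalized reads in the mutant, against 912, 1048 and 783.5 in WT. The groups lay far apart, the highest mutant library being below every WT library by more than 2-fold. The log2 difference was -1.75 ± 0.20 (SE, limma adjusted p = 0.000703), and it passed in all 20 alternative analyses. TES (TETRASPORE, AT3G43210), a kinesin of the phragmoplast required for cytokinesis after male meiosis, fell as well. It had 171, 185 and 105 normalized reads in the mutant, against 397, 586 and 386 in WT. The groups did not overlap, and the log2 difference was -1.58 ± 0.28 (SE, limma adjusted p = 0.00805). Among the 20 alternatives TES missed the threshold only without WT library 2 (limma adjusted p = 0.0526). POK2, a kinesin that marks the division plane, missed the threshold in limma (adjusted p = 0.158) and passed in DESeq2 (adjusted p = 0.043) and without WT library 1.

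CDT1A (AT2G31270), which loads the replicative helicase onto origins, rose in the mutant, the only one of 22 other replication genes to do so by limma. It had 1186, 1345 and 1133 normalized reads in the mutant, against 787, 795 and 913 in WT. All mutant libraries were above all WT libraries, and the log2 difference was 0.55 ± 0.13 (SE, limma adjusted p = 0.0367). This call was lost in 7 of the 20 alternatives, among them leaving out mutant library 1, mutant library 2, WT library 1 or WT library 2 (limma adjusted p = 0.12, 0.172, 0.0923 and 0.136).

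No gene passed in the other 5 lists. Among 13 genes of the retinoblastoma, E2F and MYB3R regulators, MYB3R1, a transcription factor of mitotic genes, had the smallest p, with 789, 924 and 949 normalized reads in the mutant against 514, 566 and 759 in WT. Its groups did not overlap, and its log2 difference was 0.55 ± 0.17 (SE, limma adjusted p = 0.0920). It passed without WT library 3, at 0.71, and, where 13.9% of all genes passed, without both libraries numbered 3, at 0.66. Without mutant library 3 it was 0.50 and did not pass (limma adjusted p = 0.125). The smallest limma adjusted p was 0.179 for CCS52B among 7 regulators of the anaphase-promoting complex, and 0.231 for SMR8 among 5 tested SIAMESE-related inhibitors. It was 0.190 for CDKC;2 among 9 CDK-activating and other CDK genes, and 0.449 for HTR9 among 5 genes of the replicative histone H3.1.

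**Figure D5:**
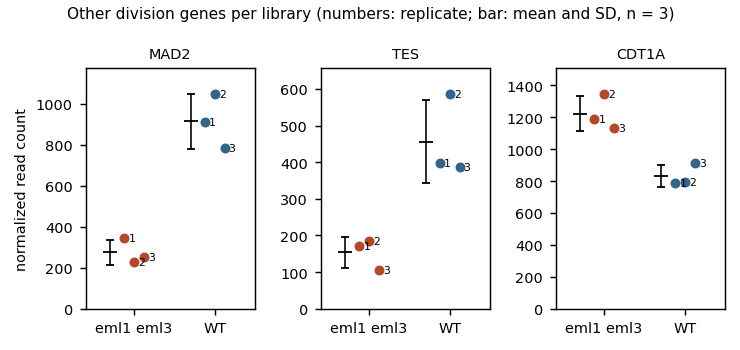
Normalized read count (y axis, from 0) of MAD2, TES and CDT1A in each of the 3 *eml1 eml3* libraries (left) and 3 WT libraries (right), with bars for mean and SD. MAD2 and TES are lower and CDT1A higher in every mutant library than in every WT library.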

How the data were processed

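RNA-seq of 3 *eml1 eml3* and 3 WT silique libraries was used. The submitters' processing notes name Trim Galore, SAMtools, STAR 2.5.2a, Subread, featureCounts and DESeq2; no source used here gives the genome build, annotation or strand setting, and coordinates and sequences are therefore not printed. The signal values are gene counts that the authors divided by 1 size factor per library, per the submitters' processing notes and the file headers. Dividing by the value of 1 read in each library gave whole numbers within 1e-06 for 100% of values. Depth in whole reads recovered this way was 39246167, 31569842 and 26771227 in the mutant, and 38196040, 31503946 and 27046107 in WT. The authors' own comparison was also deposited, with log2 fold changes, p-values and adjusted p-values, and its test statistic (a score) was not used.

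Genes with a mean of at least 10 were tested with limma 3.58.1 in R 4.3.3 (variance trend, log2(value + 1), mutant minus WT, genotype only, two-sided, Benjamini-Hochberg over 21751 genes, threshold 0.05). The added 1 shrinks differences of low genes on this scale, while a mean of log values can also exceed the fold of means where libraries vary, as for CYCD7;1 (2.28, edgeR 1.80) and CYCD4;2 (-0.93, edgeR -0.84). On recovered reads, edgeR 4.0.16 called 1403 genes. DESeq2 1.42.0, other scalings, filters and pseudocounts (0.5 and 5), a replicate block and leaving out libraries were further alternatives. Means carry SDs over 3 libraries and log2 differences carry SEs. The fitting code was tested on simulated data.

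The genes, phases, lists and tests were chosen with earlier results of these data known. Values per library are given for the member of each family with the smallest p and the one with the highest mean, since none passed; other genes with values were named after their values were seen, as paralogues, overlapping genes or small counts. Overlaps, transcript lengths, neighbours and copies (BLAST 2.17.0, at least 95% identity over at least 150 bases) came from the TAIR10.1 reference by locus identifier. Of the 51 genes, 17 overlap another gene and 3 have a near-identical copy. Reads are not independent molecules. Ratios of paralogues were tested with SciPy 1.17.1.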

Additional observations from a re-analysis of the deposited data

How the results depend on the processing

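Over all genes, 1476 passed in limma (6.79%), 1527 with a pseudocount of 5, 2397 in DESeq2, 2991 without both libraries numbered 3 (13.9%), and 571 to 2613 with 1 library left out. Of the 51 cell cycle genes 0 passed; there was 1 with a pseudocount of 5 (CDKB1;2, adjusted p = 0.0488), 2 in DESeq2, 4 without both libraries numbered 3 (PCNA2, CYCA2;3, CDKB1;2 and KN), and 0 to 1 with 1 library left out (PCNA2 without mutant library 3). CDKB1;2 was not tested at a minimum mean of 50. Of the 79 other cell cycle genes tested 3 passed, 5 without both libraries numbered 3 (beside 13.9% of all genes) and 1 to 4 with 1 left out.

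The median log2 difference of the 51 was -0.027 without both libraries numbered 3 and ran from -0.206 to -0.049 with 1 left out. Such leave-one-out ranges were -0.21 to -0.028 for D-type cyclins, -0.071 to 0.075 for genes of DNA synthesis, -0.32 to -0.13 for G2 and mitosis, -0.035 to 0.116 for CDKA;1 and -0.045 to 0.12 for inhibitors, whose median was 0 without both libraries numbered 3. Across the 20 alternatives 33 of the 51 genes kept the sign of their estimate and 18 did not; the cause was not tested. Scaling to 1 total moved the median of all genes to -0.06 and gave 615 higher calls of 1478.

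Same-numbered libraries did not deviate alike from their group means (correlations -0.079, -0.002 and -0.17). With 3 libraries per genotype this cannot show that they were unpaired. With a replicate block limma called 1203 genes and edgeR 1009, in both cases with 0 of the 51, and CDT1A missed the threshold (0.0619 and 0.0686). Low read counts (CDKB1;2, CYCD7;1) and 3 libraries per genotype both limit precision, and their shares were not tested.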

Other observations

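In 11 pairs of paralogues among the 51 genes, taken as reciprocal longest transcript matches, the ratio of the pair was compared within each library. Of all genes tested, taken singly, 26.9% did not overlap between genotypes, and the share over paralogue pairs in general was not computed. The ratio did not overlap in 4 of the 11 pairs. Beside the CDKB1 and PCNA pairs these were CYCB2;2 over CYCB2;1, at 3.88, 4.05 and 3.86 in the mutant libraries against 2.50, 2.55 and 3.18 in the WT libraries, and CYCD3;3 over CYCD3;2, at 0.264, 0.309 and 0.268 in the mutant libraries against 0.396, 0.394 and 0.416 in the WT libraries. Each of the 4 had a two-sided exact permutation p = 0.1, the smallest that 3 against 3 libraries allow (0.275 after adjustment over the 11). In the CDKB1 pair this had to follow, as CDKB1;2 was higher and CDKB1;1 lower in every mutant library. In the other 7 pairs the ratios overlapped. The summed count of the CYCD3;3 and CYCD3;2 pair was 1876 ± 142 in the mutant and 1873 ± 100 in WT (SD, n = 3 each), and that of the CYCB2 pair 290 ± 73.2 in the mutant and 280 ± 44.4 in WT.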
